A study of Homo sapiens with 4 samples.

Results

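The matrix metalloproteinase and plasminogen activation genes MMP1, MMP3, MMP7, MMP9, MMP13, MMP14, TIMP1, PLAU and PLAUR were followed in PC3 cells after knockdown of ALKBH3. These 9 genes, of 19102 named on the array, were listed by name and not by a threshold on their values. They were matched to 10 probes, 1 for each gene and 2 for PLAU, and any of the 9217 probes left unnamed (of 34127) may also belong to them. PC3 is an established human prostate cancer cell line, and ALKBH3 is a dioxygenase that removes alkyl groups from single-stranded nucleic acid. Cells infected for 48 h with a lentiviral shRNA directed at ALKBH3 or, as control, at GFP were selected with puromycin and harvested at 48 h or 96 h of selection. RNA of each of the 4 combinations was hybridised to 1 single-colour Agilent array. Which of several possible ALKBH3 shRNAs was used, and whether the time points came from separate cultures, is not given in the labels. Each shRNA was repeated over the 2 time points alone, so p-values measure the spread between these arrays, which includes the change with time and may otherwise be technical.

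Matrix metalloproteinases are zinc-dependent endopeptidases that are made as inactive precursors and cleave collagens and other proteins of the extracellular matrix. Tissue inhibitors of metalloproteinases, such as TIMP1, bind and block their active site. In the plasminogen system, urokinase (PLAU) held at the cell surface by its receptor (PLAUR) converts plasminogen to plasmin, which degrades fibrin and can activate several metalloproteinase precursors. Both systems are known for their part in the invasion of carcinoma cells, and several of these genes are inducible by inflammatory cytokines. The study knocked down ALKBH3 to see whether it affects transcription of the genes it binds. Whether these 9 genes are bound by ALKBH3 is not analysed here.

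The MMP genes of the set are not spread evenly over the genome. MMP7, MMP1, MMP3 and MMP13 lie on chromosome 11, in a run of 9 protein-coding genes ordered in RefSeq as MMP7, MMP20, MMP27, MMP8, MMP10, MMP1, MMP3, MMP12 and MMP13. MMP14 is on chromosome 14, MMP9 on chromosome 20, PLAU on chromosome 10, PLAUR on chromosome 19 and TIMP1 on chromosome X. Promoter windows of 300 bases (RefSeq, GRCh38.p14) were matched for MMP7, MMP14, TIMP1, PLAU and PLAUR, with 2 windows for PLAU. MMP1, MMP3, MMP9 and MMP13 have no matched window. Each window was searched on both strands for TGAGTCA, a binding sequence of the AP-1 transcription factors, for TATAAA, a form of the TATA box, and for GGGCGG, the GC box. Stretches of 3 windows are printed because they belong to the gene whose 2 probes were highest relative to control, to the gene called lower at the later time, and to the urokinase receptor. Capitals mark the matches, and position -1 is the base before the annotated start.
PLAU, second window, chr10:73911012-73911131, plus strand, bases -120 to -1: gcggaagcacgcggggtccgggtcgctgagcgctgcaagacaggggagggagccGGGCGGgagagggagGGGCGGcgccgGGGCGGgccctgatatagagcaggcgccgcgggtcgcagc
MMP7, chr11:102530748-102530867, minus strand, bases -120 to -1: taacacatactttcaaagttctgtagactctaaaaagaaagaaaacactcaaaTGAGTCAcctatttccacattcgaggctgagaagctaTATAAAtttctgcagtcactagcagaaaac
PLAUR, chr19:43670270-43670389, minus strand, bases -220 to -101: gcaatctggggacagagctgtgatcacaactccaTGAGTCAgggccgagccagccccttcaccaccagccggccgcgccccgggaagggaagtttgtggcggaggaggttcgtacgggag

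The second PLAU window holds 3 GC boxes, at -66, -51 and -40, and neither of the other motifs. The first PLAU window holds none of the 3 motifs. The MMP7 window holds an AP-1 match at -67 and a TATA box at -30, an arrangement common among MMP promoters. The PLAUR window has an AP-1 match at -186. MMP14 has 1 GC box, at -66, and TIMP1 has 2, at -135 and -45. Over all 35116 RefSeq windows of this length, 4.95% hold the AP-1 sequence, 11.5% the TATA sequence and 45% the GC box. A match describes the letters of a window and does not show that a factor binds there.

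The intensity of a spot is given below in the scanner's units after subtraction of background, and a level is its log2 value relative to the 75th percentile of the same array. That percentile lay between 2150 and 2394 on the 4 arrays, and 67% to 70.9% of the probes were well above background. The log2 fold change of ALKBH3 itself with its shRNA was -2.03 and -2.07 by its first probe, for the 48 h and the 96 h slide, and -1.74 and -1.51 by its second. The epithelial markers KRT8, KRT18, KRT19, EPCAM and CDH1 were well above background on all arrays, and KLK3, which marks androgen-responsive prostate cells, on none. Of 6 fibroblast markers, COL1A2 and PDGFRB were not well above background on any array, and the summed level of the 6 was -0.60 and then -1.22 with control shRNA, against 0.03 and then -0.33 with the shRNA to ALKBH3. COL1A1, DCN and LUM were higher after knockdown at both times, and COL3A1 was lower at both. The summed level of 4 endothelial markers was -0.25 and -0.16 on the control arrays and -0.83 and -1.02 on those of ALKBH3 shRNA. The brightest of the 4, KDR, was at -0.65 and -0.52 in the control and at -1.31 and -1.56 after knockdown. VWF, a dim probe, was higher after knockdown at both times. Among the epithelial markers, EPCAM went from 2.87 to 3.83 at 48 h and from 2.41 to 3.40 at 96 h. CDH1 was also higher after knockdown at both times, KRT18 and KRT19 were lower, and KRT8 was mixed. All 6 leukocyte markers were well above background, with summed levels from -0.61 to -0.07. The part of these markers in any difference between the shRNAs was not tested. Control arrays held the first position on each slide and ALKBH3 shRNA arrays the second, so position and shRNA cannot be told apart.

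The clearest difference between the shRNAs was in PLAU. Both PLAU probes were brighter with ALKBH3 shRNA at both times, by 1.79-fold to 2.58-fold, while the receptor PLAUR and the inhibitor TIMP1 differed by less than the spread between arrays. Among the metalloproteinases, MMP13 was brighter at 48 h and MMP1 dimmer at 96 h, and neither difference passed the test over the 4 arrays. A probe was called when its fold change reached 2 and its unadjusted limma p was below 0.05, the cutoffs of the study. By this rule 1 of the 9 probes tested was higher with ALKBH3 shRNA and 0 were lower, against 0.886% and 0.232% of all 23244 probes. After Benjamini-Hochberg adjustment over all probes, limma called none of the 23244 (smallest adjusted p = 0.0917), although 7.66% had an unadjusted p below 0.05, and the methods' t-test also called none. The median log2 fold change of the 9 probes was -0.0047, and that of all probes was 0.0028.

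**Figure D1:**
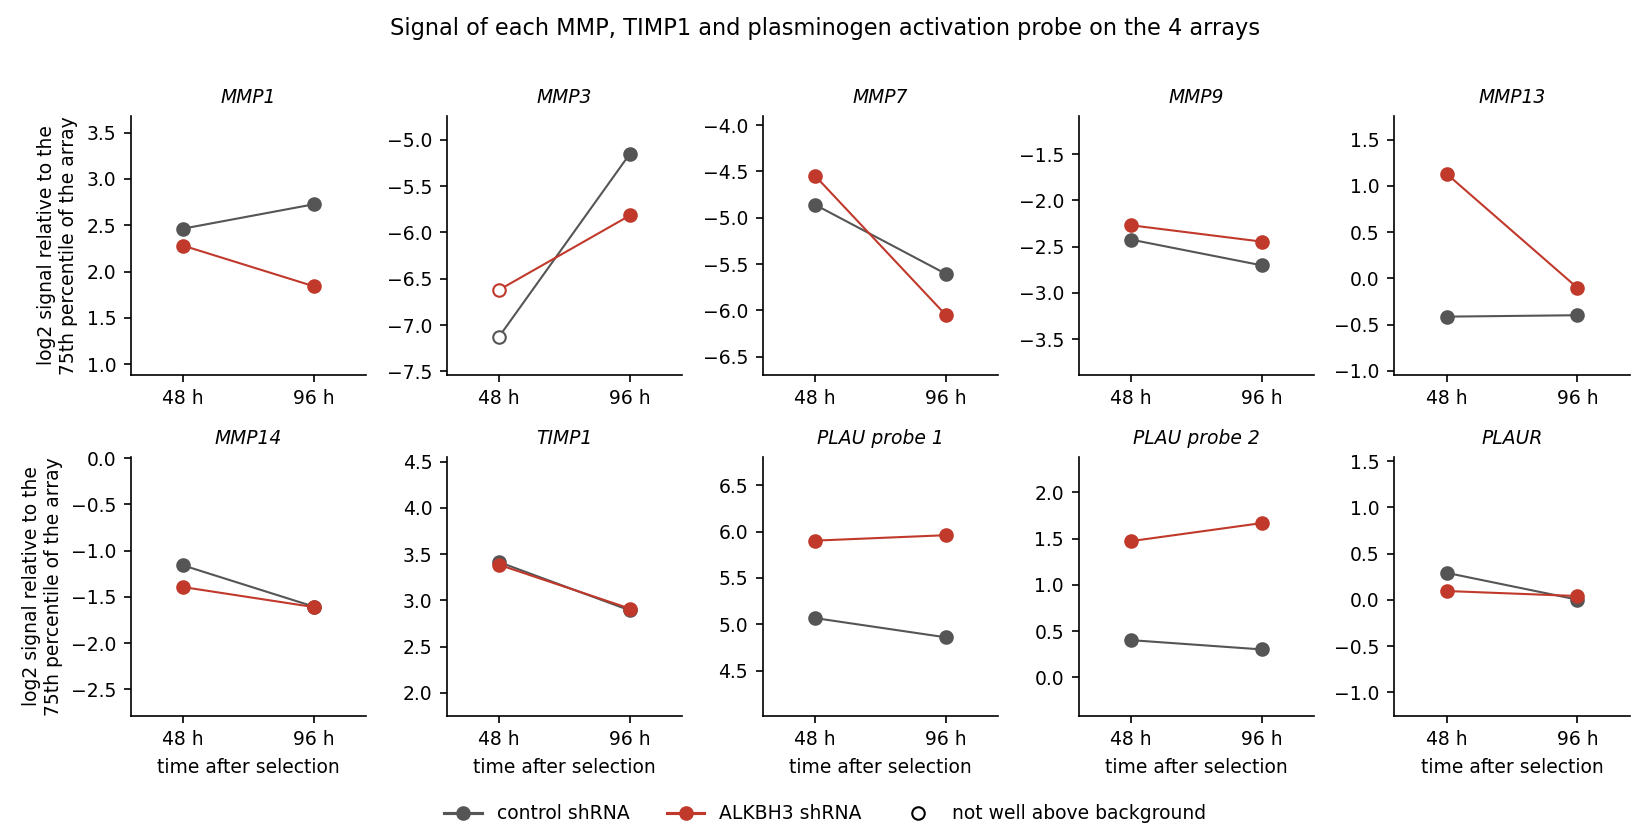
Level of each probe (vertical axis, log2 signal relative to the 75th percentile of the array) at 48 h and 96 h of selection (horizontal axis), with control shRNA in grey and ALKBH3 shRNA in red; each point is 1 array, open points were not well above background, and every panel spans the same number of log2 units. The lines of each PLAU probe stay apart at both times, MMP13 is high on the ALKBH3 shRNA array at 48 h alone, and TIMP1 is lower at 96 h with both shRNAs.

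Urokinase is the serine protease that cleaves plasminogen to plasmin. At 48 h PLAU probe 1 (A_23_P24104) had an intensity of 72051 in the control and 136815 in the knockdown. At 96 h it had 67907 and 149260. Both ALKBH3 shRNA arrays were above both control arrays. This probe was printed 10 times on each array, and the spots of an array varied by a log2 SD of 0.063 to 0.12. The lowest single spot with ALKBH3 shRNA, at 126446, was above the highest control spot, at 79679, so the difference was larger than the spread of repeated spots. The spots share 1 RNA sample and are no replicates of the knockdown.

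PLAU probe 2 (A_33_P3306146), which matches another transcript record of the gene, read 2842 on the 48 h control array and 6342 on the matching ALKBH3 shRNA array. The 96 h pair read 2886 and 7606. It gave the same order of the 4 arrays by shRNA as probe 1, with no overlap between the groups. Its level was 0.35 ± 0.07 over the control arrays and 1.57 ± 0.14 over the ALKBH3 shRNA arrays (SD, n = 2 arrays each). The signal with ALKBH3 shRNA was 2.10-fold that of its control on the 48 h slide and 2.58-fold on the 96 h slide. Over the 4 arrays the log2 fold change was 1.22 (SE 0.14, 95% interval 0.86 to 1.57, limma unadjusted p = 0.00043, adjusted p = 0.361), and this was the probe that passed the 2-fold and p cutoffs. Probe 1 gave folds of 1.79 and 2.15 and a log2 fold change of 0.97 (SE 0.13, 95% interval 0.61 to 1.33, limma unadjusted p = 0.0011, adjusted p = 0.361), which is just under 2-fold. It passed the cutoffs with quantile normalization (1.01), with the authors' values and without the control array at 48 h (1.07). With 1 probe a gene, the brighter probe 1 stands for PLAU and no member is called. With the time point, which is also the slide, as a replicate block, the limma adjusted p was 0.0306 for probe 2 and 0.0355 for probe 1. Those were the 2 of 9 probes past the adjusted p in that fit, against 2.95% of all probes. Both read the same gene in the same RNA. By gene, PLAU alone of the 8 tested passed, against 3.3% of genes taken by their brightest probe. In bulk RNA, a change in the share of cells that express a gene and a change in RNA per cell cannot be told apart.

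**Figure D2:**
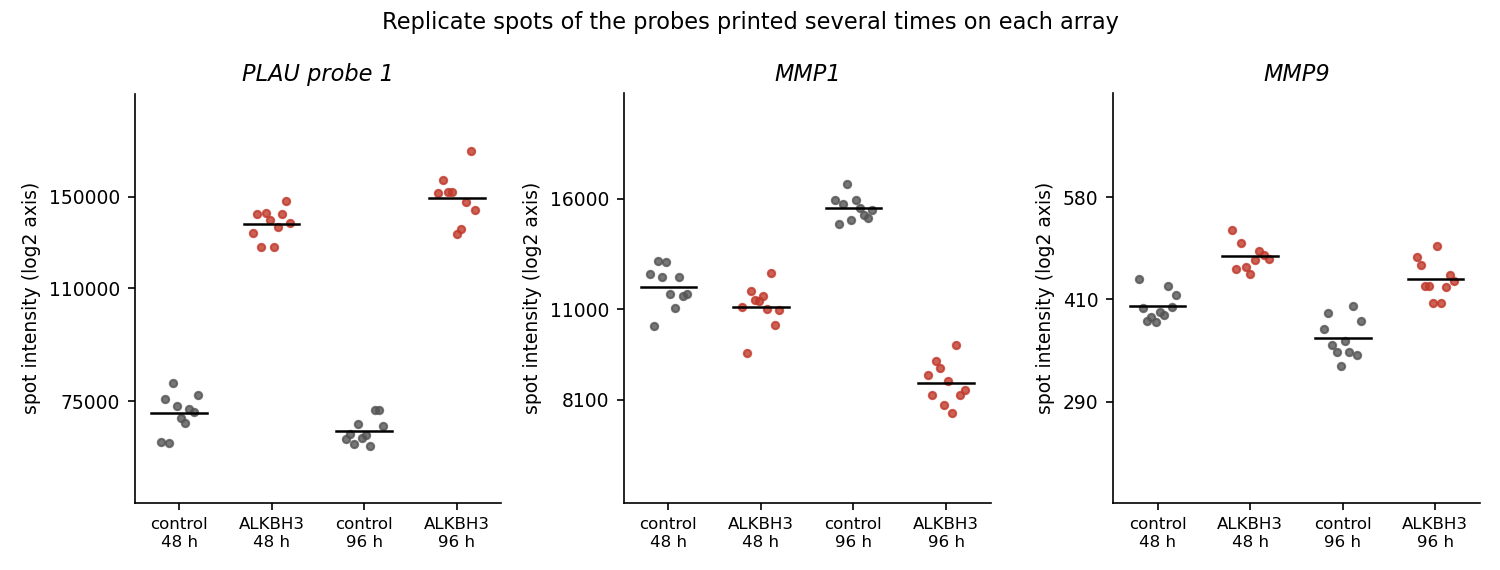
Intensity of every spot (vertical axis, scanner units, log2 axis) of the 3 probes printed several times on each array, for PLAU probe 1, MMP1 and MMP9, in the 4 samples; grey is control shRNA, red is ALKBH3 shRNA, and the line is the mean of the log2 values. The PLAU spots of the 2 shRNAs do not overlap, the MMP1 spots overlap at 48 h and not at 96 h, and the MMP9 spots do not overlap within either time although their means lie close together.

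PLAUR, the receptor that holds urokinase at the cell surface (probe A_23_P16469), did not move with PLAU. Its intensity was 2631 and 2442 on the 48 h slide (control, then ALKBH3 shRNA) and 2343 and 2464 on the 96 h slide. The highest value was that of control shRNA at 48 h, and the other three arrays lay close together. The slides gave log2 fold changes of -0.20 and 0.04, and the 4 arrays together gave -0.08 (SE 0.15, 95% interval -0.47 to 0.32, limma adjusted p = 0.973). The interval leaves room for differences of that size in either direction.

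MMP13, the collagenase known for its action on type II collagen, had the largest difference of any metalloproteinase of the set at a single time. Its probe (A_33_P3221203) read 1614 on the 48 h control array against 4998 after knockdown, and 1776 against 2231 on the 96 h slide. The control values were nearly equal, the ALKBH3 shRNA array at 48 h stood far above the other arrays, and that at 96 h was the second highest. This is a 2.91-fold difference at 48 h and a 1.23-fold difference at 96 h. Over the 4 arrays the log2 fold change was 0.92 (SE 0.42, 95% interval -0.19 to 2.03, limma unadjusted p = 0.0855, adjusted p = 0.714), so it did not pass. The value rests on the ALKBH3 shRNA array at 48 h: without it the log2 fold change was 0.30, and without the ALKBH3 shRNA array at 96 h it was 1.53 and past the cutoffs. It also passed with the authors' values (1.01).

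MMP1, the interstitial collagenase, went the other way. On the 48 h slide its probe (A_23_P1691) read 11860 in the control and 11100 in the knockdown. On the 96 h slide it read 15495 and 8577. Both ALKBH3 shRNA arrays were below both control arrays. The 10 spots overlapped at 48 h, between 9485 and 12427 with ALKBH3 shRNA and between 10406 and 12948 with control shRNA. They were apart at 96 h, where the highest ALKBH3 shRNA spot was 9752 and the lowest control spot 14686. The signal was 1.14-fold lower at 48 h and 1.85-fold lower at 96 h. Over the 4 arrays the log2 fold change was -0.54 (SE 0.20, 95% interval -1.07 to 0.0021, limma unadjusted p = 0.0506, adjusted p = 0.656).

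MMP9, or gelatinase B, which cleaves denatured collagen and type IV collagen, differed little. Its probe (A_23_P40174) read 401 in the control and 474 in the knockdown at 48 h, and 360 and 440 at 96 h. ALKBH3 shRNA was higher within each time, by 1.11-fold and 1.19-fold, and by intensity both of its arrays were above both control arrays. On the centred scale the control level at 48 h (-2.42) was just above the ALKBH3 shRNA level at 96 h (-2.45), so the levels that were tested overlapped. The log2 fold change was 0.21 (SE 0.16, 95% interval -0.21 to 0.62, limma adjusted p = 0.865). MMP14, the membrane-type metalloproteinase that activates the MMP2 precursor, was measured by probe A_24_P82106. It read 962 (control) and 869 (knockdown) at 48 h, and 769 and 784 at 96 h, and the log2 value of the difference was -0.12 (SE 0.20, 95% interval -0.64 to 0.41, limma adjusted p = 0.966). Its groups overlapped.

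Signals near background were those of stromelysin 1 (MMP3) and matrilysin (MMP7), proteases with broad substrates among matrix proteins. MMP7 (A_23_P52761) was well above background on all arrays and read 74.1 in the control and 97.9 in the knockdown at 48 h, then 48.1 and 36.2 at 96 h. ALKBH3 shRNA was thus the higher at 48 h and the lower at 96 h, with log2 fold changes of 0.31 and -0.44 and a value of -0.07 over the 4 arrays (SE 0.56, limma adjusted p = 0.993). MMP3 (A_23_P161698) read 15.4 and 23.2 at 48 h, where it was not well above background, and 65.9 and 42.5 at 96 h, where it was. It was therefore not tested between the shRNAs. Its intensity was higher with control shRNA on the slide where it was measured, a log2 difference of -0.67 between 1 array and 1 array.

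TIMP1, the inhibitor of most secreted metalloproteinases, was measured by probe A_23_P62115. Its intensity was 22911 (control) and 23872 (knockdown) on the 48 h slide, and 17372 and 18020 on the 96 h slide. Arrays of the same time were nearly equal and the times were apart. The log2 fold change between the shRNAs was -0.0047 (SE 0.26, 95% interval -0.69 to 0.68, limma adjusted p = 0.999). With the time point as a block the 95% interval narrowed to -0.23 to 0.22.

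Counted without regard to size, 3 of the 9 probes tested had both ALKBH3 shRNA arrays above both control arrays, against 17.4% of all probes. They were MMP13 and the 2 PLAU probes, which read the same gene. MMP1 alone of the 9 had both below, against 18.6%. An unadjusted limma p below 0.05 was reached by the 2 PLAU probes, against 7.66% of all probes. MMP1 lay at this line (limma unadjusted p = 0.0506). Its limma p was below 0.05 with normexp (0.0354), median centring (0.0390), the authors' values (0.0495), the filter on all arrays (0.0469) and the replicate block (0.0364). It stayed above 0.05 with quantile normalization, the percentile over bright probes, no filter and 1 probe a gene, and the methods' t-test gave 0.172.

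**Figure D3:**
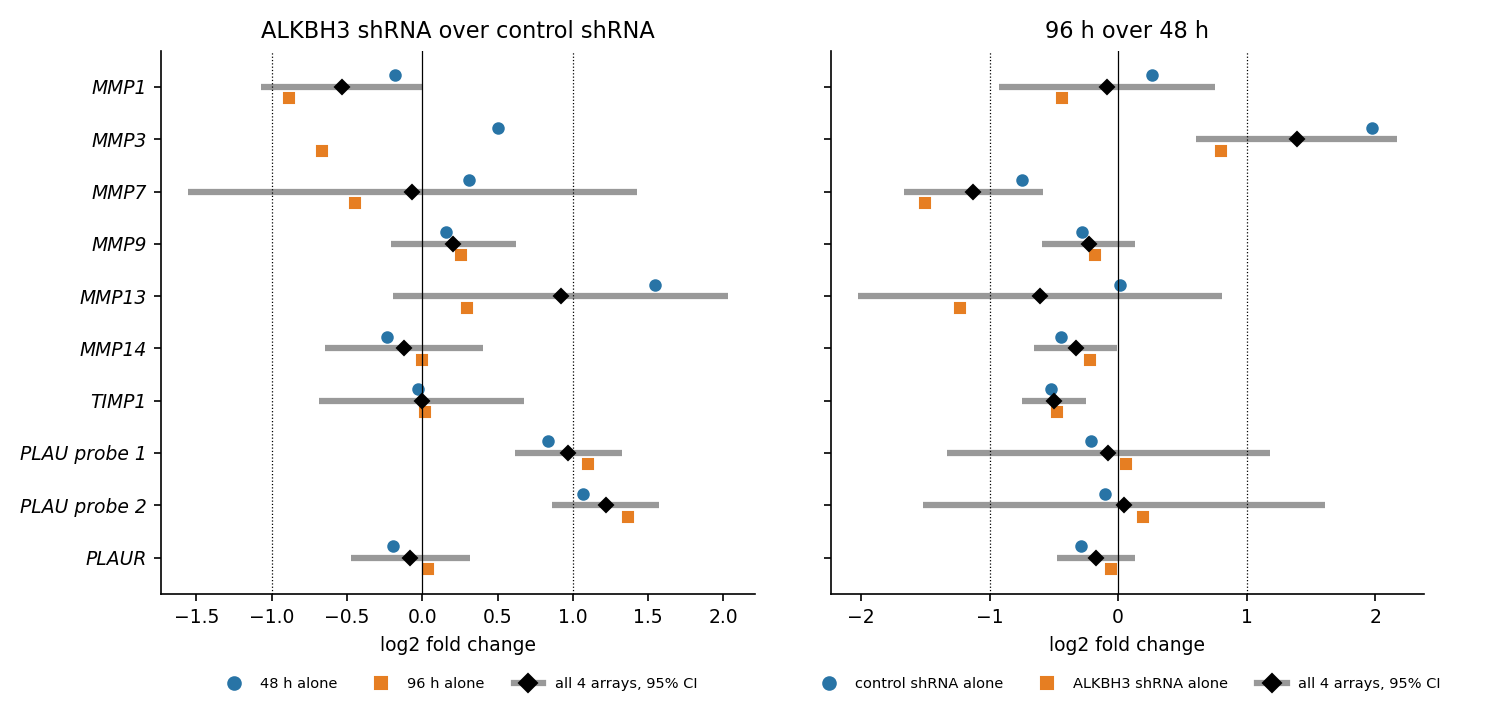
Log2 fold change of each probe (horizontal axis) for ALKBH3 shRNA over control shRNA on the left and for 96 h over 48 h on the right; coloured points compare 1 array with 1 array, diamonds are the limma values over all 4 arrays with 95% intervals, and dotted lines mark a 2-fold change. The intervals of both PLAU probes lie above 0 on the left, and those of MMP7, MMP14 and TIMP1 exclude 0 on the right; MMP3 was not tested on the left and rests on dim 48 h values on the right.

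The second comparison asked how the genes differed between 48 h and 96 h of selection. The inhibitor TIMP1 and the proteases MMP7 and MMP14 were lower at 96 h with both shRNAs. Each time point lay on a slide of its own, so time and slide cannot be told apart. Of the 10 probes tested, 1 was called lower (MMP7), against 0.666% of 23274 probes. MMP3 passed the cutoffs as higher, against 0.327%, but it was tested only through the 96 h arrays, where it was bright, so nothing is read from that call. No probe of the 23274 passed the adjusted p by limma or by the methods' t-test, while 19% had an unadjusted limma p below 0.05. Both 96 h arrays were above both 48 h arrays for 1 of the 10 probes (background 28.6%). That probe was again MMP3, so nothing is read from this count. Both were below for 5 (background 24.4%), namely MMP7, MMP9, MMP14, TIMP1 and PLAUR.

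MMP7 was 2.18-fold lower at 96 h (log2 fold change -1.12, SE 0.20, 95% interval -1.67 to -0.58, limma unadjusted p = 0.0037, adjusted p = 0.128). The change was -0.75 in the control and -1.50 in the knockdown. With the shRNA as a replicate block the limma adjusted p of MMP7 was 0.0395. The MMP7 call was lost with normexp background correction (-0.62), with the methods' t-test, and without the ALKBH3 shRNA array at 48 h (-0.97) or at 96 h (-0.90). The 48 h values of MMP3 were raised to the lowest signal well above background on the same array, where they lay below it. MMP3 was then 2.37-fold higher at 96 h, a value that holds for this processing and is no minimum. Its log2 fold change of 1.39 on the measured values was 0.49 with normexp and 0.79 with the authors' values, neither past the cutoffs, and the methods' t-test did not call it either. TIMP1 was 1.41-fold lower (log2 fold change -0.50, SE 0.09, 95% interval -0.75 to -0.25, limma unadjusted p = 0.0043, adjusted p = 0.131). Its change was -0.52 in the control and -0.47 in the knockdown, and with the shRNA as a block its limma adjusted p was 0.0376. MMP7 and TIMP1 were the 2 of 10 probes past the adjusted p in that fit, against 10.8% of all probes. MMP14 had a log2 fold change of -0.33 (SE 0.12, limma unadjusted p = 0.0462, adjusted p = 0.256), below the 2-fold cutoff. Its unadjusted limma p was above 0.05 with normexp (0.0707), quantile normalization (0.0623), median centring (0.0954) and the authors' values (0.132). The percentile over bright probes, no filter and the methods' t-test also put it above 0.05. It stayed below with the filter on all arrays, 1 probe a gene and the replicate block.

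For MMP13, MMP1 and PLAU the difference between the times had opposite signs with the 2 shRNAs. The log2 level of MMP13 at 96 h minus that at 48 h was 0.015 in the control and -1.23 in the knockdown, where the intensity went from 4998 to 2231. For MMP1 the same differences were 0.26 and -0.44. PLAU probe 2 differed by 0.05 between the times (SE 0.59, limma adjusted p = 0.974) and probe 1 by -0.07 (SE 0.47, limma adjusted p = 0.948).

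The other genes of the plasminogen system set the PLAU values in context. Of 16 such genes other than PLAU and PLAUR, 12 were tested, 1 was called higher and 0 lower, against 1.06% and 0.24% of 14556 genes taken by their brightest probe. Their median log2 fold change was 0.14, and that of all genes was -0.0030. SERPINB2, plasminogen activator inhibitor 2, which blocks urokinase, was the gene called. It was well above background on all arrays but dim, with control levels in the range of MMP7. Its level on the 48 h slide was -5.46 in the control and -3.81 in the knockdown, and on the 96 h slide -5.50 and -4.44. Both ALKBH3 shRNA arrays were above both control arrays, with a log2 fold change of 1.35 (SE 0.24, limma unadjusted p = 0.0031, adjusted p = 0.387). With normexp correction it was 0.74 and no longer called. PLAT, the tissue-type plasminogen activator, went the other way. Its level was 5.20 in the control and 4.21 in the knockdown at 48 h, and 5.27 and 4.29 at 96 h. The log2 fold change was -0.99 (SE 0.12, limma unadjusted p = 0.00061, adjusted p = 0.361), a 1.99-fold lower signal that just missed the 2-fold cutoff. It passed with median centring (-1.02) and without the control array at 48 h (-1.02) or the ALKBH3 shRNA array at 96 h (-1.03). PLAT and SERPINB2 were the 2 of these genes with an unadjusted limma p below 0.05 (8.15% of all genes), and both passed the adjusted p with the time point as a block (3.3% of all genes), at 0.0300 and 0.0395. LRP1, a receptor that clears complexes of activator and inhibitor, stood at -0.38 on the log2 scale (limma adjusted p = 0.656). PLG, which encodes plasminogen, was not well above background on enough arrays to be tested.

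**Figure D4:**
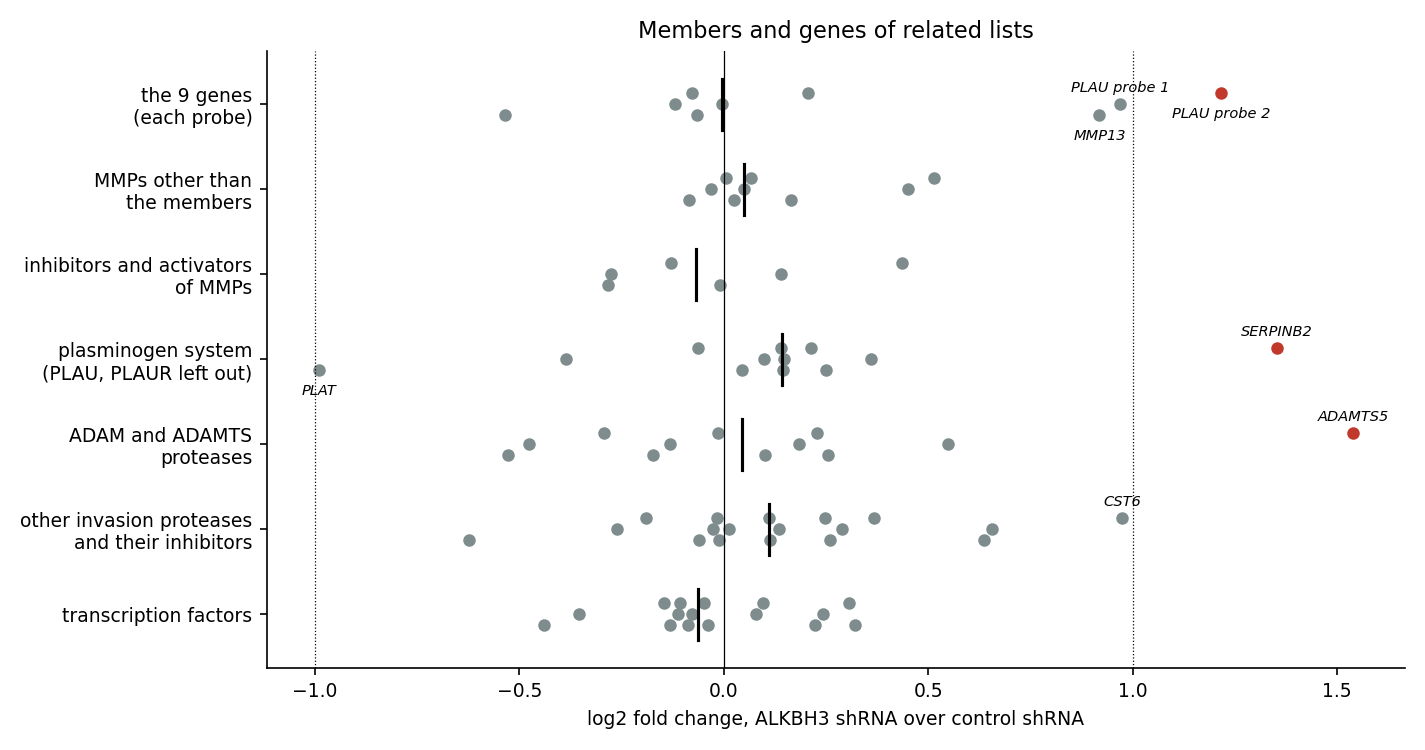
Log2 fold change of ALKBH3 shRNA over control shRNA (horizontal axis) for the probes of the 9 genes and for the genes tested in 6 related lists (1 point a gene, brightest probe); red points passed the 2-fold and p cutoffs, thick bars are medians and dotted lines mark a 2-fold change. PLAU probe 2, SERPINB2 and ADAMTS5 (dim on both control arrays) are past the cutoffs, PLAU probe 1, PLAT and CST6 lie near a 2-fold change, and the medians lie between -0.07 and 0.14.

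The other metalloproteinases gave no call. Of 18 listed, 9 were tested and 0 passed the cutoffs, against 1.06% higher and 0.24% lower over all genes. The median log2 fold change of the 9 was 0.05. The largest values with 1 direction at both times were 0.51 for MMP11 (0.43 and 0.60) and 0.45 for MMP24 (0.56 and 0.34), with limma adjusted p of 0.662 and 0.657. MMP2, the substrate of MMP14, was on the array and was not bright enough to be tested. Among 8 inhibitors and activators of metalloproteinases, 6 were tested and 0 called (median -0.07), against the same shares over all genes. The 6 included BSG, which encodes an inducer of metalloproteinases, at -0.27, the protease inhibitor TFPI2 at -0.28 and the proprotein convertase FURIN at 0.44.

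Of 17 ADAM and ADAMTS proteases, relatives of the metalloproteinases that act at the cell surface and in the matrix, 12 were tested, 1 was called higher (1.06% of all genes) and 0 lower (0.24%), with a median of 0.04. The called gene was ADAMTS5, an aggrecanase, whose probe did not rise well above background on the control arrays. With its control values set to the lowest signal well above background, or to its own where higher, it was 2.26-fold higher with ALKBH3 shRNA. That value holds for this processing and is no minimum. ADAMTS5 was tested only through the arrays on which it was bright, so nothing is read from the call. This call was lost with normexp correction (log2 fold change 0.29), quantile normalization (1.34) and the authors' values (0.51), and without the ALKBH3 shRNA array at 48 h (0.99) or the control array at 96 h (1.13). Of the genes well above background on all arrays, ADAM19 (log2 fold change 0.55, limma adjusted p = 0.579) and ADAM17, the sheddase of tumour necrosis factor (-0.48, limma adjusted p = 0.562), had an unadjusted limma p below 0.05, as did 8.15% of all genes. ADAMTS12 was not well above background with ALKBH3 shRNA, so it was tested only through the control arrays. With its ALKBH3 shRNA values set to the lowest signal well above background, ADAMTS12 was 1.28-fold lower. That is no minimum, since its log2 fold change ranged from -0.75 to -0.29 over the other processing settings. ADAM17 was named after its value was seen.

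Of 26 other proteases of invasion and their inhibitors, 18 were tested and 0 called, against 1.06% higher and 0.24% lower over all genes. Their median was 0.11. The largest values with 1 direction at both times were 0.97 for CST6, a cystatin that inhibits lysosomal cysteine proteases, 0.66 for KLK5 and 0.64 for KLK6, with limma adjusted p of 0.844, 0.914 and 0.928. The log2 level of CST6 at 96 h minus that at 48 h was -1.38 in the control and -1.55 in the knockdown. Without the control array at 48 h, CST6 (1.66) and KLK6 (1.57) passed the cutoffs, and CST6 also did without the ALKBH3 shRNA array at 96 h (1.75). The surface peptidase DPP4, named after its value was seen, was the gene of this list with an unadjusted limma p below 0.05 (log2 fold change -0.62, limma adjusted p = 0.393). Over all genes, 8.15% had an unadjusted limma p below 0.05. Of 19 transcription factors known to act at MMP and PLAU promoters, 16 were tested and 0 called, against the same shares of calls over all genes. Their median was -0.06, with the AP-1 subunit FOSB at -0.44, ETV1 at -0.36 and RELB at 0.32.

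Among genes well above background on all arrays, GLIPR1 and NRK followed PLAU probe 2 most closely, at Euclidean distances of 0.092 and 0.16 log2 units over the 4 arrays after each was centred on its own mean. GLIPR1 had log2 fold changes of 1.06 at 48 h and 1.30 at 96 h, and NRK 0.91 and 1.45. NMUR1, which the rule also named, was not well above background on the control arrays, so its distance has no exact value. With its control values set to the lowest signal well above background, NMUR1 was 1.35-fold higher with ALKBH3 shRNA. That value holds for this processing alone. A distance over 4 arrays describes a shared pattern of 4 values.

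**Figure D5:**
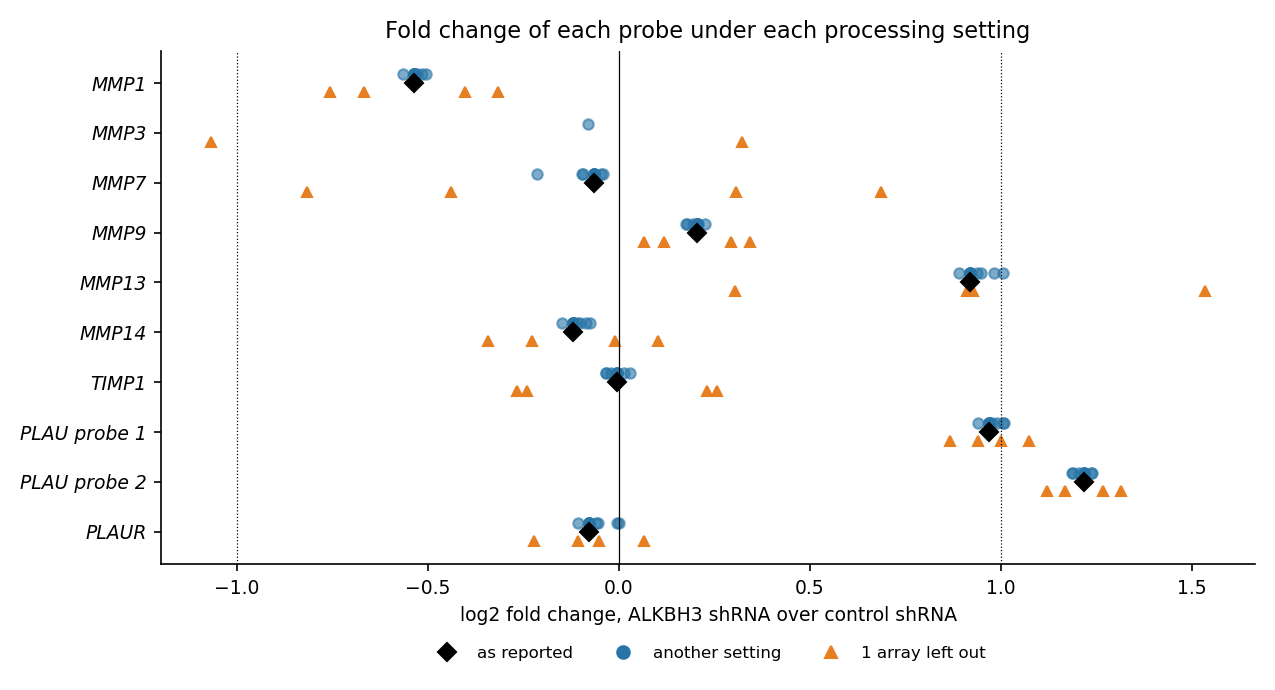
Log2 fold change of ALKBH3 shRNA over control shRNA (horizontal axis) for each probe as reported (diamonds), under each other processing setting (circles) and with 1 array left out (triangles); dotted lines mark a 2-fold change. PLAU probe 2 lies between 1.12 and 1.31 throughout, PLAU probe 1 between 0.87 and 1.07, and MMP13 moves between 0.30 and 1.53 with the array left out.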

How the data were processed

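Total RNA of 4 PC3 samples was labelled with Cy3 and hybridised to Agilent 44K arrays. The authors deposited spot intensities from Agilent Feature Extraction (version 10.7.3.1 per the file headers), which had subtracted background on each array and raised small values to a floor, leaving arrays unnormalized against each other. A table of log2 values, which the authors normalized between arrays with limma, was deposited too. The method within limma is not given in the sources used here, and these values served as an alternative.

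Spots marked as not uniform or as outliers (180 to 379 of 43118 on an array) were removed, and 0 were saturated. Log2 intensities were centred on the 75th percentile of each array, and spots of a probe were averaged. Precision is limited by the number of arrays. Of 34127 probes, 24910 were named by matching their accession to RefSeq genes of GRCh38.p14, since the spot tables hold no gene names. A probe was well above background when at least 0.5 of its spots were, and was tested when this held on both arrays of at least 1 group compared. The comparisons, ALKBH3 shRNA against control shRNA and 96 h against 48 h, used lmFit and eBayes (R 4.3.3, limma 3.58.1 and version 1.17.8 of data.table) without covariates, with Benjamini-Hochberg adjustment over all probes tested. The steps were tested on simulated data. For related genes the brightest probe of each was used. Named were the 9 genes, and from each list the genes called and the 3 with the largest absolute log2 fold change of the same sign at both times, and the 3 genes closest in pattern to a called probe. MMP2 and PLG were named outside this rule, for their place in the pathway, and ADAM17 and DPP4 after their values were seen. The members and lists were chosen with earlier results of these data known, and the GC box was added to the motifs later.

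Shared time points pair the arrays: across 23244 probes the change between 48 h and 96 h correlated between the shRNAs (r = 0.660, which describes probes, with 2 pairs). The alternatives were normexp (offset 50), quantile normalization, median centring, the authors' values, the percentile over bright probes only, no filter, a filter on all arrays, 1 probe a gene, a 1.5-fold cutoff, the methods' t-test, the replicate block and leaving out each array.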

Additional observations from a re-analysis of the deposited data

Results flagged for a closer look

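The difference between ALKBH3 shRNA and control shRNA had opposite signs at 48 h and 96 h for MMP3, MMP7, TIMP1 and PLAUR. These log2 differences were 0.51 and -0.67 for MMP3, 0.31 and -0.44 for MMP7, -0.029 and 0.020 for TIMP1 and -0.20 and 0.039 for PLAUR. MMP3 was not well above background on the 48 h arrays, so its 48 h difference lies within the range of dim probes.

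The change from 48 h to 96 h had opposite signs with the 2 shRNAs for MMP1 (0.26 with control shRNA and -0.44 with ALKBH3 shRNA), MMP13 (0.015 and -1.23), PLAU probe 1 (-0.21 and 0.058) and PLAU probe 2 (-0.10 and 0.20). Each of these values compares 1 array with 1 array, and whether the pairs of differences differ from each other was not tested.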

How the results depend on the processing

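The number of member probes past the cutoffs between the shRNAs, 1 as reported, was 2 with quantile normalization, 3 with the authors' values (both PLAU probes and MMP13), 2 at 1.5-fold, 0 with 1 probe a gene (PLAU then being read by probe 1) and between 1 and 3 with 1 array left out: 3 without control shRNA at 48 h (both PLAU probes higher, and MMP3 lower only through the control array left, on which it was bright) and 2 without ALKBH3 shRNA at 96 h (PLAU probe 2 and MMP13). Between the times it was 2 as reported, 0 with normexp and with the methods' t-test, 1 with the authors' values and with the filter on all arrays (MMP3 being lost), and between 1 and 3 with 1 array left out: 1 without either ALKBH3 shRNA array and 3 without control shRNA at 48 h. The replicate block changed neither count, 1 and 2. It moved the calls at the adjusted p over all probes from 0 to 685 between the shRNAs and from 0 to 2516 between the times. Over all alternatives the probes called higher and lower ranged from 60 to 595 and from 25 to 292 between the shRNAs (206 and 54 as reported) and from 14 to 750 and from 58 to 661 between the times (76 and 155 as reported, 109 and 135 with median centring, 52 and 203 with quantile normalization).

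The sign of some values turned. Between the shRNAs, TIMP1 turned with quantile normalization (0.029) and with the percentile over bright probes (0.014), and MMP25 with normexp (-0.088), quantile normalization (-0.0077) and the authors' values (-0.12). With 1 array left out, log2 fold changes between the shRNAs ranged from -0.82 to 0.69 for MMP7, -0.34 to 0.10 for MMP14, -0.27 to 0.26 for TIMP1, -0.22 to 0.066 for PLAUR, -0.042 to 0.18 for MMP25, -0.078 to 1.39 for KLK5, -0.30 to 1.57 for KLK6 and -0.89 to 0.011 for FOSB. Between the times they ranged from -0.53 to 0.36 for MMP1, -1.38 to 0.16 for MMP13, -0.63 to 0.48 for PLAU probe 1 and -0.64 to 0.73 for PLAU probe 2. None of these values was called as reported. The cause was not tested. A group with 1 array left was assumed to vary like the other. Signals near background, MMP3 and MMP7 among them, limit what these arrays can show.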
